A study of Mus musculus with 9 samples.

Results

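Glycolysis in the testis runs on a mixed set of enzymes: some steps use the form found in most tissues and others a form made in male germ cells. The 35 genes described here were chosen by symbol in the deposited table of 54532 genes. They cover glucose entry, every glycolytic step from hexokinase to lactate dehydrogenase, lactate export and the E1 subunits of pyruvate dehydrogenase. Of these, 8 sperm forms (Aldoart1, Aldoart2, Gapdhs, Pgk2, Pgam2, Eno4, Ldhc and Pdha2) were set beside the somatic forms of the same steps. The symbol Aldoa stands on 2 rows of the table, so the 35 symbols gave 36 rows.

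RNA was sequenced from mouse primary cells titled spermatocytes and typed as male germ cells at PD 35, in 9 libraries. The 3 groups of 3 were Control (genotype WT), ClpP cKO and ClpX cKO, where ClpP or ClpX had been removed in germ cells with Stra8-Cre. Stra8-Cre is a transgene whose promoter is active from premeiotic germ cells onward, so somatic cells of the testis should keep both genes. ClpP degrades proteins inside mitochondria, and ClpX is the unfoldase that feeds it. The labels name no way of isolating cells and no separate animals behind the replicates. The p-values here therefore reflect variation among these libraries, which may be technical.

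Glycolysis splits glucose into pyruvate, which is reduced to lactate by lactate dehydrogenase or enters the mitochondrion, where pyruvate dehydrogenase acts on it. In the seminiferous tubule, Sertoli cells take up glucose and release lactate, which spermatocytes and round spermatids burn in their mitochondria. Spermatids and sperm in turn build a glycolytic chain of their own along the flagellum, where Gapdhs, Aldoart1 and other germ cell forms are bound to the fibrous sheath. Several of these forms are retrogenes, intronless copies of another gene, in some cases of a gene on the X chromosome, which is silenced in meiosis. Pgk2 and Pdha2 are the textbook cases, copied from the X-linked genes Pgk1 and Pdha1.

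The libraries held 14334436 (Control 3) to 17021685 (Control 2) gene reads. FPKM is a read count scaled to gene length and library size, so levels of different genes can be set side by side only roughly. For 35 of the 36 rows the length was the union of all annotated exons. It was 3310 bases for Ldha, whose transcript with the longest coding sequence has 1815, and 8532 for Hk1 (4278). For Ldhc it was 1580 (1370) and for Pgk2 1626 (1626). Ranks, shares and ratios across genes carry this difference, whereas a gene has the same length in every library. Of the targeted genes, Clpp was at 9.06 ± 0.522 FPKM in Control (mean ± SD, n = 3, as for all such values), 5.002 ± 1.24 in ClpP cKO and 13.1 ± 0.852 in ClpX cKO. Clpx was at 56.5 ± 2.41 FPKM in Control, 37.5 ± 2.42 in ClpP cKO and 13.4 ± 2.14 in ClpX cKO. Markers of meiotic prophase summed to 449 to 515 FPKM in the controls, but markers of elongating spermatids summed to 7329 to 16503 and those of Sertoli cells to 340.5 to 355. None of the markers in 9 lists was at 0 in any library, so spermatocytes were not the only cells whose markers were measured. All 8 elongating spermatid markers fell in both knockouts, with a median log2 change of -1.34 in ClpP cKO and -2.61 in ClpX cKO (sums of 4238 to 5088 and 1475 to 2255 FPKM). All 8 Sertoli cell markers rose in both (medians 0.55 and 1.01, sums of 494 to 533 and 624 to 839 FPKM).

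The sperm forms differ from their partners in the genome as well as in level. In GENCODE M21, Pgk2 (chr17:40207015-40208640, minus strand), Pdha2 (chr3:141210004-141212355, minus), Aldoart1 (chr4:72850583-72852634, minus) and Aldoart2 (chr12:55565239-55566896, plus) have 1 exon each. Pgk1 (chrX:106187100-106203699, plus) and Pdha1 (chrX:160122209-160138413, minus) have 11 exons each and lie on X. Ldhc (chr7:46861203-46878142, plus) and its somatic partner Ldha (chr7:46841475-46855627, plus) stand close together on chromosome 7, each with transcripts of 8 exons. Gapdhs (chr7:30729775-30743681, minus) has 11 exons and Gapdh (chr6:125161715-125166467, minus) has 7 at most. Coordinates are those of the table (GRCm38).

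The upstream windows of 4 genes are printed because they belong to the sperm forms that lead the results (Gapdhs, the largest fall in ClpX cKO; Pgk2, a retrogene; Ldhc, the most abundant) and to Pgk1, the X-linked partner of Pgk2, which did not fall. Each is the 250 bases before the RefSeq start nearest to the gene's start in the table, on GRCm38.p6, written 5′ to 3′ on the gene's strand, with TGACG (the core of the cyclic AMP response element, bound by CREM and related factors) and CCAAT boxes in capitals on either strand. The windows are chr7:30743682-30743931 (minus strand), chr17:40208610-40208859 (minus), chr7:46861013-46861262 (plus) and chrX:106186850-106187099 (plus).
Gapdhs: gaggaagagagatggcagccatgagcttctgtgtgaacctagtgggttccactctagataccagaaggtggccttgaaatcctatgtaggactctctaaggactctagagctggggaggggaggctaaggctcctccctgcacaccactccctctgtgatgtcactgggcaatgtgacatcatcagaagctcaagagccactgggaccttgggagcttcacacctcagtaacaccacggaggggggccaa
Pgk2: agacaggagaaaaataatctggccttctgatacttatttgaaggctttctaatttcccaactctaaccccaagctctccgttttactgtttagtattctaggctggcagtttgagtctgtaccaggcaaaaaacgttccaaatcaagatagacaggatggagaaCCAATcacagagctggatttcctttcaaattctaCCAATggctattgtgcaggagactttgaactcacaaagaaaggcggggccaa
Ldhc: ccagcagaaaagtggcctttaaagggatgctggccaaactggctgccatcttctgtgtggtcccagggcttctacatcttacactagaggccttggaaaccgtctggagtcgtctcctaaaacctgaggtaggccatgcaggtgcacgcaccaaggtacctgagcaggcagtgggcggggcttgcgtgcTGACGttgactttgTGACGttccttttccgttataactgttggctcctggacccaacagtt
Pgk1: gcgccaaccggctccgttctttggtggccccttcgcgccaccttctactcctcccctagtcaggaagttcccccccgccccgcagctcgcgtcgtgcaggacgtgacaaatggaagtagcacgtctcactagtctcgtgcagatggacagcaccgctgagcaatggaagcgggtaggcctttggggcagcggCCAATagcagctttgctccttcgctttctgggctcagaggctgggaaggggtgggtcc
TGACG was present on either strand in 17.8% of 32851 upstream windows of this length. Of the 7 sperm forms with a window (Aldoart1 was not matched), Ldhc alone held it, at 2 places. The Gapdhs window held neither motif and so shows no capitals. Among 12 other members searched Hk2 and Ldha held TGACG, and Ldha held the full palindrome TGACGTCA, which holds TGACG on both strands and was in 1.55% of all windows. CCAAT was in 33.9% of all windows. Pgk2 held it at 2 places and Pgam2 at 1 (2 of 7 sperm forms), and Hk2 at 2, Pgk1 at 1 and Ldhb at 1 (3 of 12 others). The windows also differed in CpG dinucleotides, whose median over all windows was 6. Gapdhs and Pgam2 had 1 each, Pgk2 had 3, Pdha2 4, Aldoart2 7 and Ldhc 8, and Eno4 with 22 stood apart from the other sperm forms. Of the somatic partners, Pgk1 had 17, Pdha1 15, Pgam1 22 and Ldha 25, whereas Eno1 had 9, Gapdh 8 and Aldoa 0. A match of letters is a description of the window and no evidence of a bound factor.

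Control libraries made some of these transcripts in very large amounts. Ldhc stood at 1989, 2036 and 1911 FPKM in the 3 controls, at percentile 99.98 among protein-coding genes. Next by mean came Pgam2 (602 ± 69.6), Gapdhs (549 ± 148), Pgk2 (379 ± 62.5), Ldha (320.0 ± 1.91), the neuronal and germ cell glucose transporter Slc2a3 (277 ± 11.5) and Bsg (269.6 ± 12.5), the chaperone of lactate carriers. Ldhc did not overlap with any other gene. Each of the neighbours Pgam2 and Gapdhs, Gapdhs and Pgk2, Pgk2 and Ldha, and Slc2a3 and Bsg overlapped in range, and Ldha lay above Slc2a3 without overlap. At the other end stood the glucose transporter Slc2a1 at 2.39 ± 0.291 FPKM, Pdha1 at 1.45 ± 0.216, Aldoc at 1.30 ± 0.249 and Gapdh at 0.855 ± 0.136. Eno2, the neuronal enolase, was at 0.170 ± 0.0886 FPKM (5 to 22 reads in any library) and was the 1 row of 36 that did not pass the filter of a mean FPKM of at least 1.

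**Figure D1:**
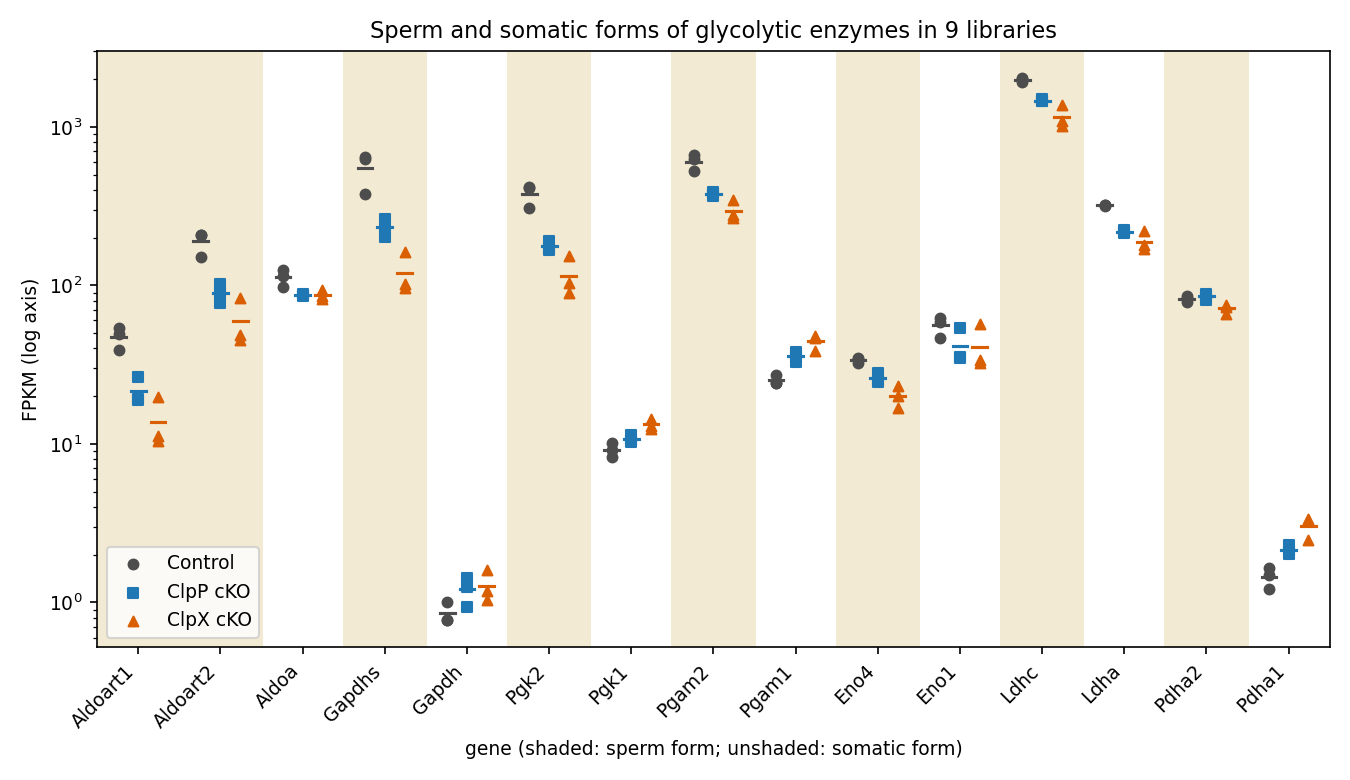
FPKM on a log axis for the 8 sperm forms (shaded) and the 7 somatic forms of the same steps, with 3 points per group (1 per library) and a bar at each group mean. Gapdhs, Pgk2, Pgam2 and both retrogene aldolases step down from Control to ClpP cKO to ClpX cKO, while Pgk1, Pgam1 and Pdha1 step up.

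Several somatic levels are uncertain because their sequence is shared. Of all 31-base windows in the annotated transcripts of a gene, 54.7% of those of Pgk1 also occur in transcripts of other genes, mainly Pgk1-rs7. The share was 37.1% for Pgam1, 34.7% for Pkm, 33% for Ldhb and 28.1% for Gapdh, whose windows recur in transcripts of 330 other genes. For Eno1b, annotated as a separate gene, 81.8% of windows occur in Eno1. How the authors treated reads with several matches is not given in the sources used here. Pgk2, Ldhc, Pgam2 and Pdha2 shared no window with any other gene. Aldoart1 shared 10.2% and Aldoart2 5.83% of its windows with Aldoa.

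In ClpP cKO, 7 of the 35 tested rows rose, 17 fell and 11 did not pass the test (limma on log2(FPKM + 1), Benjamini-Hochberg adjusted p under 0.05 over the 17266 genes tested). The 24 called rows are 68.6% of the members, beside 44.7% of all genes tested (20.7% risen and 24% fallen). Of the 8 sperm forms 7 fell, with a median log2 change of -0.87 over the 8 (range -1.21 to 0.04), and Pdha2 was not called. Of the other 27 rows 7 rose and 10 fell, with a median of -0.11, beside a median of 0.01 over all genes tested. Knockout and control values were fully separate for 26 rows (74.3%), beside 61.7% of all genes. Leaving out Control 1, Control 2, ClpP cKO 2 or ClpP cKO 3 left 4 rows risen and 10 or 11 fallen, with no share of all genes taken.

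In ClpX cKO, measured against the same 3 controls, 9 rows rose, 20 fell and 6 were not called. The 29 called rows are 82.9% of the members, beside 65.6% of all genes tested (32.1% risen and 33.5% fallen). All 8 sperm forms fell, with a median log2 change of -1.37 (range -2.19 to -0.20). The other 27 rows were split into 9 that rose and 12 that fell, with a median of -0.10. Values were fully separate from Control for 30 rows (85.7%), beside 69.8% of all genes. In bulk RNA, fewer cells of a type and less RNA per cell cannot be told apart. Beside the elongating spermatid and Sertoli cell markers, 7 of 8 round spermatid markers fell in ClpP cKO and 8 of 8 in ClpX cKO (sums of 592 to 642 FPKM in Control, 319 to 399.7 in ClpP cKO and 209 to 378 in ClpX cKO). Of spermatogonial markers 5 and 7 of 8 rose (sums of 59.7 to 68.2, 80.1 to 93.0 and 93.5 to 120.5 FPKM). The list was not uniform, since 1 of the 8 fell in ClpX cKO (-0.34). In ClpP cKO 1 marker lay below Control without overlap but was not called. Peritubular and stromal markers rose in 2 and 5 of 6 cases (sums of 53.0 to 78.1, 71.8 to 91.8 and 83.2 to 128 FPKM), and immune markers in 3 and 5 of 5 tested (sums of 32.8 to 39.2, 43.1 to 64.0 and 63.3 to 77.8 FPKM). Meiotic prophase markers were mixed, with 4 of 8 risen and 1 fallen in each knockout (sums of 449 to 515, 498 to 551 and 486 to 536 FPKM). Of Leydig cell markers 0 and 2 of 6 rose (sums of 196 to 389, 361 to 519 and 342 to 519 FPKM). Of 4 erythroid markers tested, 0 were called in ClpP cKO and 1 fell in ClpX cKO. The part of these cell types in the member counts was not tested.

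The split between risen and fallen depended on how libraries were scaled to each other. When each library was scaled to its own total of gene reads, the median change of all genes moved from 0.01 to 0.16 in ClpP cKO and from 0.00 to 0.18 in ClpX cKO. The member counts were then 11 risen and 12 fallen in ClpP cKO, and 10 risen and 14 fallen in ClpX cKO. After quantile normalization they were 11 and 8, and 14 and 13. The shares of all genes called under these scalings were not taken, so these counts do not set the members apart. The 7 sperm forms other than Pdha2 were lower in both knockouts under every scaling tried. A limma voom fit on reads recovered from the FPKM used the same totals of gene reads. It is therefore no separate check of own-total scaling.

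**Figure D2:**
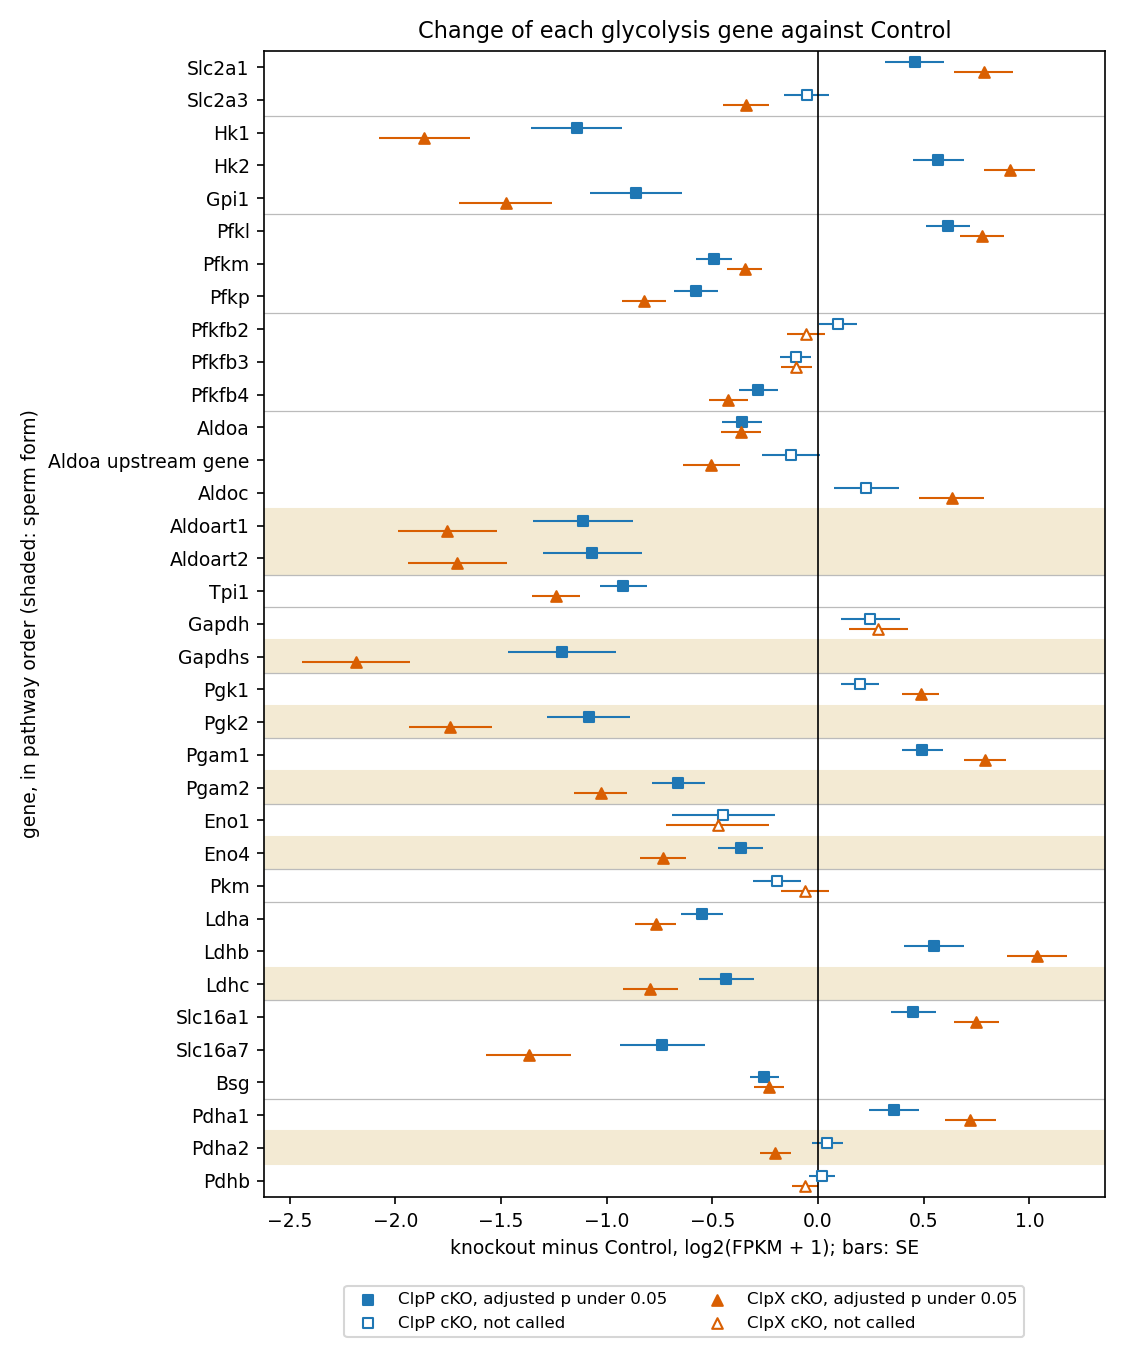
Fitted change of each tested row in log2(FPKM + 1) against Control, in pathway order, with bars of 1 SE. Filled marks passed an adjusted p of 0.05, open marks did not, and sperm forms are shaded. The sperm forms lie left of 0 except Pdha2 in ClpP cKO, and Pdha2 lies right of 0 in both knockouts with own-total scaling, voom and quantile normalization. Of their somatic partners Pgk1, Pgam1, Gapdh and Pdha1 lie right of 0, and Ldha and Aldoa lie left of it, with Aldoa turning right after quantile normalization.

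At glucose phosphorylation Hk1 and Hk2 parted, whereas at glucose entry the direction of Slc2a3 beside Slc2a1 depended on the scaling. Slc2a1 encodes GLUT1, the widespread glucose transporter, and rose by 0.46 in ClpP cKO and 0.79 in ClpX cKO on the log2 scale. Slc2a3 encodes GLUT3 and was not called in ClpP cKO (-0.05), with -0.34 (adjusted p = 0.022) in ClpX cKO, where own-total scaling gave -0.12 with no call. After quantile normalization it passed as a rise in both knockouts (0.49 and 0.35). The call of Slc2a3 in ClpX cKO was lost when Control 1, Control 2 or ClpX cKO 3 was left out (adjusted p = 0.053 to 0.07), and that of Slc2a1 in ClpP cKO when Control 1, Control 2, ClpP cKO 2 or ClpP cKO 3 was left out (adjusted p = 0.063 to 0.092). Hexokinase traps glucose by phosphorylating it. Hk1, the form that sperm carry through germ cell transcripts of the gene, was at 187, 193 and 130.5 FPKM in the controls, 84.3, 67.1 and 76.0 in ClpP cKO and 62.6, 37.6 and 39.7 in ClpX cKO. The 3 groups did not overlap. The changes from Control were -1.14 (SE 0.22, adjusted p = 0.009) and -1.86 (SE 0.22, adjusted p = 0.00045). Hk2, the form of muscle and fat, went the other way, from 8.35, 8.25 and 7.82 FPKM in the controls to 11.8, 13.0 and 12.9 in ClpP cKO and 13.4, 15.8 and 19.7 in ClpX cKO. Its lowest knockout library lay above its highest control, and the changes were 0.57 (SE 0.12, adjusted p = 0.011) and 0.91 (SE 0.12, adjusted p = 0.00052). In the controls Hk1 thus stood at 170.3 FPKM and Hk2 at 8.14, and in ClpX cKO at 46.6 and 16.3. Gpi1, glucose-6-phosphate isomerase, fell by 0.86 and 1.48 (adjusted p = 0.016 and 0.0007), from a control group that ranged from 33.8 FPKM in Control 3 to 67.0. Its ClpP cKO call was lost when Control 1, ClpP cKO 2 or ClpP cKO 3 was left out (adjusted p = 0.051 to 0.058).

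Phosphofructokinase commits sugar to glycolysis, and its 3 genes did not move together. Pfkm, the muscle form and the most abundant, was at 61.4, 57.2 and 64.6 FPKM in the controls, 41.3, 42.7 and 45.3 in ClpP cKO and 52.6, 47.5 and 43.6 in ClpX cKO. Its log2 changes were -0.49 (SE 0.08, adjusted p = 0.0086) and -0.35 (SE 0.08, adjusted p = 0.0063), but the ClpP cKO call was lost after quantile normalization (-0.19). The ClpX cKO call was lost with own-total scaling (-0.13), voom (-0.13) and quantile normalization (0.08). Pfkp, the platelet form, fell by 0.58 in ClpP cKO and 0.82 in ClpX cKO, from 18.2, 19.3 and 17.8 FPKM in the controls to 12.2, 12.7 and 11.2 and 11.6, 9.90 and 8.60. Pfkl, the liver form, rose from 4.29, 4.13 and 3.62 FPKM to 6.48, 6.48 and 7.03 in ClpP cKO and 6.46, 7.83 and 8.53 in ClpX cKO, by 0.61 (SE 0.10, adjusted p = 0.0086) and 0.78 (SE 0.10, adjusted p = 0.00051). Pfkl is the least abundant of them, and the summed FPKM of the 3 genes was lower in every knockout library (60.1, 61.9 and 63.5 in ClpP cKO, 70.7, 65.2 and 60.7 in ClpX cKO) than in any control (83.9, 80.6 and 86.0). Of the bifunctional enzymes that tune this step, Pfkfb2 and Pfkfb3 were not called in either knockout, although Pfkfb2 was called as risen in ClpP cKO with own-total scaling (0.25) and voom (0.29). Pfkfb4, which the testis expresses, fell by 0.28 and 0.43. The ClpP cKO call of Pfkfb4 was lost with own-total scaling, voom and quantile normalization. It was also lost when Control 1, Control 2, ClpP cKO 2, ClpP cKO 3 or ClpX cKO 2 was left out (adjusted p = 0.051 to 0.12).

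Aldolase splits fructose bisphosphate, and both retrogene forms had larger fitted falls than Aldoa. Aldoart2 was at 209, 209 and 152 FPKM in the controls, 102, 77.9 and 88.9 in ClpP cKO and 83.6, 45.3 and 48.6 in ClpX cKO, with changes of -1.07 (SE 0.23, adjusted p = 0.011) and -1.71 (SE 0.23, adjusted p = 0.00055). Aldoart1 was at 53.9, 49.2 and 39.2, 26.3, 19.3 and 18.8 and 19.7, 10.4 and 11.2 FPKM in the same order, with changes of -1.11 (SE 0.23, adjusted p = 0.011) and -1.75 (SE 0.23, adjusted p = 0.00052). For both genes every knockout library lay below every control, and ClpX cKO 1 overlapped with ClpP cKO. Aldoa was at 125, 115 and 98.2 FPKM in the controls, 87.1, 88.4 and 86.1 in ClpP cKO and 86.0, 81.8 and 93.3 in ClpX cKO. Its changes of -0.36 and -0.36 passed the test (adjusted p = 0.018 and 0.0089), but were -0.18 and -0.14 with own-total scaling and 0.03 and 0.17 after quantile normalization, with no call. The ClpP cKO call of Aldoa was also lost when Control 1, Control 2, ClpP cKO 2 or ClpP cKO 3 was left out (adjusted p = 0.054 to 0.062). The other row with this symbol lies just upstream of it on the same strand (chr7:126800790-126809108), with changes of -0.13 (not called) and -0.50. The latter was not called with own-total scaling (-0.29), voom (-0.30) or quantile normalization (-0.26). Aldoc, the brain form, was not called in ClpP cKO (0.23) and rose by 0.63 in ClpX cKO, on 51 to 179 reads a library. Aldoart1 and Aldoart2 together made 67.4% ± 1.64 of the FPKM of aldolase genes in Control, 55.4% ± 3.53 in ClpP cKO and 44.0% ± 8.63 in ClpX cKO (Aldoa without its upstream row). For Tpi1, triose phosphate isomerase, no other gene of the step was among the members, and germ cell transcripts of Tpi1 itself were not tested. Tpi1 fell from 95.7, 95.7 and 78.9 FPKM in the controls to 44.3, 50.2 and 46.3 in ClpP cKO and 43.2, 34.2 and 35.5 in ClpX cKO. Its changes were -0.92 (SE 0.11, adjusted p = 0.0086) and -1.24 (SE 0.11, adjusted p = 0.00045), with no overlap between any of the 3 groups.

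Gapdhs, the glyceraldehyde phosphate dehydrogenase that sperm need to swim, fell in both knockouts. Its fitted fall in ClpX cKO was the largest of all members in every setting run. In ClpP cKO it was the largest except after quantile normalization (Gapdhs -0.68, Aldoart1 -0.85, Hk1 -0.71) and without Control 2, where Aldoart1 and Gapdhs were both at -1.08. It was at 628, 640.4 and 379 FPKM in the controls, 263, 201 and 232 in ClpP cKO and 163, 95.9 and 102 in ClpX cKO. The groups did not overlap, although Control 3 lay well below the other controls. The changes were -1.21 (SE 0.25, adjusted p = 0.011) and -2.19 (SE 0.25, adjusted p = 0.00045). Without Control 3 and ClpX cKO 1 they were -1.46 and -2.67. Gapdh, the common form, was at 0.777, 0.776 and 1.01 FPKM in the controls, 0.939, 1.43 and 1.25 in ClpP cKO and 1.03, 1.17 and 1.60 in ClpX cKO, which rests on 46 to 113 reads a library. It was not called in either knockout (0.25 (SE 0.14, adjusted p = 0.17) and 0.29 (SE 0.14, adjusted p = 0.1)). It was called as risen in ClpX cKO with own-total scaling (0.40, adjusted p = 0.038) and voom (0.79, adjusted p = 0.017), and in ClpP cKO with voom (0.67, adjusted p = 0.048). Gapdhs made 99.8% ± 0.0831 of the FPKM of this step in Control and 98.9% ± 0.467 in ClpX cKO, a share that the shared windows of Gapdh leave uncertain.

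Phosphoglycerate kinase makes the first ATP of the pathway, and its retrogene fell in both knockouts while the X-linked parent rose in ClpX cKO, and in ClpP cKO under some scalings. Pgk2 was at 417, 413 and 307 FPKM in the controls, 190.4, 168 and 172 in ClpP cKO and 152, 89.0 and 103 in ClpX cKO. No 2 groups overlapped, and the changes were -1.09 (SE 0.20, adjusted p = 0.0086) and -1.74 (SE 0.20, adjusted p = 0.00045), or -1.23 and -2.10 without Control 3 and ClpX cKO 1. Pgk1 was at 9.21, 10.1 and 8.27 FPKM in the controls, 10.3, 10.5 and 11.3 in ClpP cKO and 13.0, 12.4 and 14.4 in ClpX cKO. It was not called in ClpP cKO (0.20 (SE 0.09, adjusted p = 0.094)) and rose in ClpX cKO (0.49 (SE 0.09, adjusted p = 0.0016)). With own-total scaling (0.37, adjusted p = 0.01) and voom (0.40, adjusted p = 0.014) it was called as risen in ClpP cKO too. Pgk2 made 97.6% ± 0.232 of the FPKM of the step in Control, 94.3% ± 0.551 in ClpP cKO and 89.2% ± 2.52 in ClpX cKO. The CpG-poor window of Pgk2 and the CpG-rich window of Pgk1 printed above belong to this pair.

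Phosphoglycerate mutase had a falling and a rising form in both knockouts. Pgam2 is the form of muscle and of spermatids, and it was at 659.9, 622 and 525 FPKM in the controls, 380.4, 368 and 388 in ClpP cKO and 345, 264 and 277 in ClpX cKO. Its changes were -0.66 (SE 0.13, adjusted p = 0.009) and -1.03 (SE 0.13, adjusted p = 0.00046), with no overlap between groups, and the ClpP cKO call was lost after quantile normalization (-0.18). Pgam1, the form of most other tissues, was at 24.3, 27.2 and 24.1 FPKM in the controls, 32.9, 38.2 and 36.5 in ClpP cKO and 38.7, 47.8 and 46.6 in ClpX cKO, and rose by 0.49 (SE 0.10, adjusted p = 0.0097) and 0.79 (SE 0.10, adjusted p = 0.00047). The share of Pgam2 in the FPKM of the pair was 96.0% ± 0.438 in Control, 91.3% ± 0.725 in ClpP cKO and 86.7% ± 2.79 in ClpX cKO.

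Enolase and pyruvate kinase gave smaller or unclear changes. Eno4, an enolase-like protein that the sperm flagellum needs, was at 34.7, 34.3 and 32.1 FPKM in the controls, 27.8, 25.4 and 24.7 in ClpP cKO and 23.2, 16.9 and 20.0 in ClpX cKO. Its changes were -0.37 (SE 0.11, adjusted p = 0.025) and -0.73 (SE 0.11, adjusted p = 0.00067), and the ClpP cKO call was lost with own-total scaling (-0.19) and quantile normalization (-0.15). It was also lost when Control 1, Control 2, ClpP cKO 2 or ClpP cKO 3 was left out (adjusted p = 0.069 to 0.082). Eno1 was at 58.7, 46.6 and 62.6 FPKM in the controls, 53.9, 35.4 and 34.7 in ClpP cKO and 33.8, 32.5 and 56.8 in ClpX cKO, overlapping between groups, and was not called (-0.45 (SE 0.24, adjusted p = 0.16) and -0.47 (SE 0.24, adjusted p = 0.11)). In each group the library with the highest Eno1 had the lowest Eno1b. The sum of both was 90.5, 99.7 and 72.8 FPKM in the controls, 61.0, 74.0 and 70.4 in ClpP cKO and 67.1, 65.8 and 65.2 in ClpX cKO. Control 3 stood just below ClpP cKO 2 in it. The ClpX cKO change of Eno1 passed the test without ClpX cKO 3 (-0.73, adjusted p = 0.019). Pkm, pyruvate kinase, was not called in either knockout (-0.20 and -0.06). Without Control 3 it passed as a fall in ClpP cKO (-0.31, adjusted p = 0.049), and after quantile normalization as a rise in ClpX cKO (0.39, adjusted p = 0.02).

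At lactate dehydrogenase the sperm form and its somatic partner both fell, and Ldhb rose. Ldhc, which germ cells make from meiosis onward, was at 1989, 2036 and 1911 FPKM in the controls, 1446, 1487 and 1457 in ClpP cKO and 1367, 1082 and 1005 in ClpX cKO. The 3 groups did not overlap. Its changes were -0.43 (SE 0.13, adjusted p = 0.027) and -0.79 (SE 0.13, adjusted p = 0.001), and the ClpP cKO call was lost with own-total scaling (-0.25) and with quantile normalization (-0.13). It was also lost when Control 1, Control 2, ClpP cKO 1, ClpP cKO 2 or ClpP cKO 3 was left out (adjusted p = 0.065 to 0.082). Ldha was at 320.2, 318 and 322 FPKM in the controls, 216, 224 and 215 in ClpP cKO and 219, 178 and 169 in ClpX cKO, with changes of -0.55 (SE 0.10, adjusted p = 0.0086) and -0.77 (SE 0.10, adjusted p = 0.00048), which were -0.01 and -0.11 and not called after quantile normalization. Ldhb, the form of heart that favours pyruvate, rose from 57.9, 56.3 and 59.4 FPKM in the controls to 72.6, 93.3 and 90.9 in ClpP cKO and 98.5, 122 and 142 in ClpX cKO, by 0.55 (SE 0.14, adjusted p = 0.017) and 1.04 (SE 0.14, adjusted p = 0.00054). Its groups were fully separate and in the reverse order of Ldhc, and its ClpP cKO call was lost when Control 1, Control 2, ClpP cKO 2 or ClpP cKO 3 was left out (adjusted p = 0.05 to 0.062). Ldhc made 84.0% ± 0.554, 82.8% ± 0.493 and 78.6% ± 2.42 of the summed FPKM of Ldha, Ldhb and Ldhc in Control, ClpP cKO and ClpX cKO.

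Lactate carriers parted as the hexokinases had. Slc16a1 encodes MCT1, a widespread carrier of lactate and pyruvate, and rose from 9.58, 10.8 and 10.8 FPKM in the controls to 14.7, 14.96 and 14.0 in ClpP cKO and 15.7, 17.7 and 21.4 in ClpX cKO, by 0.45 and 0.75. Slc16a7 encodes MCT2, the carrier of spermatids and sperm, and fell from 44.6, 46.2 and 40.3 FPKM to 30.8, 22.7 and 24.5 in ClpP cKO and 23.5, 13.3 and 13.7 in ClpX cKO, by 0.74 and 1.37. Neither overlapped with Control in a knockout. Bsg had changes of -0.25 and -0.23 that passed the test, were -0.07 and -0.01 and not called with own-total scaling, and passed as rises after quantile normalization (0.27 and 0.40, adjusted p = 0.024 and 0.0018). After quantile normalization the change of Slc16a7 in ClpP cKO was -0.48 and not called. The ClpP cKO call of Slc16a7 was also lost when Control 1, Control 2, ClpP cKO 2 or ClpP cKO 3 was left out (adjusted p = 0.06 to 0.072). That of Bsg was lost when Control 1, Control 2, ClpP cKO 1, ClpP cKO 2 or ClpP cKO 3 was left out (adjusted p = 0.054 to 0.076), and its ClpX cKO call when Control 1 or ClpX cKO 2 was left out (adjusted p = 0.058 to 0.068).

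Pyruvate dehydrogenase, an enzyme of the mitochondrial matrix, where ClpP and ClpX act, had a sperm form whose direction depended on the scaling. Pdha2 was at 86.1, 82.6 and 78.9 FPKM in the controls, 81.1, 88.6 and 85.8 in ClpP cKO and 75.4, 73.3 and 66.3 in ClpX cKO. ClpP cKO overlapped with Control and was not called (0.04 (SE 0.07, adjusted p = 0.63)), but it was called as risen with own-total scaling (0.23, adjusted p = 0.027), voom (0.23, adjusted p = 0.023) and quantile normalization (0.39, adjusted p = 0.01). ClpX cKO lay just below Control without overlap (-0.20 (SE 0.07, adjusted p = 0.035)), a change whose sign turned with own-total scaling and voom (0.02 in both, not called) and after quantile normalization, where it passed as a rise (0.28, adjusted p = 0.0078). The call was also lost when Control 1, Control 2, ClpP cKO 3, ClpX cKO 2 or ClpX cKO 3 was left out (adjusted p = 0.057 to 0.12). Pdha1, its X-linked parent, rose from 1.65, 1.49 and 1.22 FPKM in the controls to 2.09, 2.01 and 2.31 in ClpP cKO and 2.48, 3.32 and 3.36 in ClpX cKO, by 0.36 (SE 0.12, adjusted p = 0.039) and 0.72 (SE 0.12, adjusted p = 0.0011), on 62 to 217 reads a library. The ClpP cKO call of Pdha1 was lost when Control 1, Control 2, Control 3, ClpP cKO 1, ClpP cKO 2 or ClpP cKO 3 was left out (adjusted p = 0.057 to 0.12). Pdhb, the partner subunit of both, was not called in either knockout (0.02 and -0.06). It was called as risen in ClpP cKO with own-total scaling (0.20), voom (0.20) and quantile normalization (0.28), and in ClpX cKO after quantile normalization (0.33).

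A ratio of the sperm form to the somatic form within a library does not depend on how libraries are scaled to each other. The ratio of Pgk2 to Pgk1 was 45.3, 40.8 and 37.1 in the controls, 18.6, 16.0 and 15.2 in ClpP cKO and 11.7, 7.18 and 7.14 in ClpX cKO. No groups overlapped in this ratio, nor in that of Pgam2 to Pgam1, which went from 23.97 ± 2.85 to 10.6 ± 0.967 and 6.80 ± 1.84. Pdha2 to Pdha1 went from 57.5 ± 6.49 to 40.0 ± 3.56 and 24.1 ± 5.60, also without overlap, although Pdha2 itself changed little on the deposited scale. Aldoart1 to Aldoa (0.419 ± 0.0175 in Control, 0.246 ± 0.0484 in ClpP cKO, 0.159 ± 0.0607 in ClpX cKO) and Aldoart2 to Aldoa (1.68 ± 0.136, 1.03 ± 0.146 and 0.682 ± 0.252) were lower in both knockouts without overlap with Control. Gapdhs to Gapdh was 808, 825 and 374 in the controls, 279.9, 140.3 and 185 in ClpP cKO and 158, 81.6 and 63.4 in ClpX cKO, with a denominator under 2 FPKM. Ldhc to Ldha stood apart from these. It was 6.21, 6.40 and 5.94 in the controls, 6.69, 6.64 and 6.78 in ClpP cKO and 6.25, 6.06 and 5.96 in ClpX cKO, slightly higher in ClpP cKO and overlapping with Control in ClpX cKO. Eno4 to Eno1 overlapped between all groups (means 0.613, 0.648 and 0.519). The ratios are a description, and their differences were not tested.

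**Figure D3:**
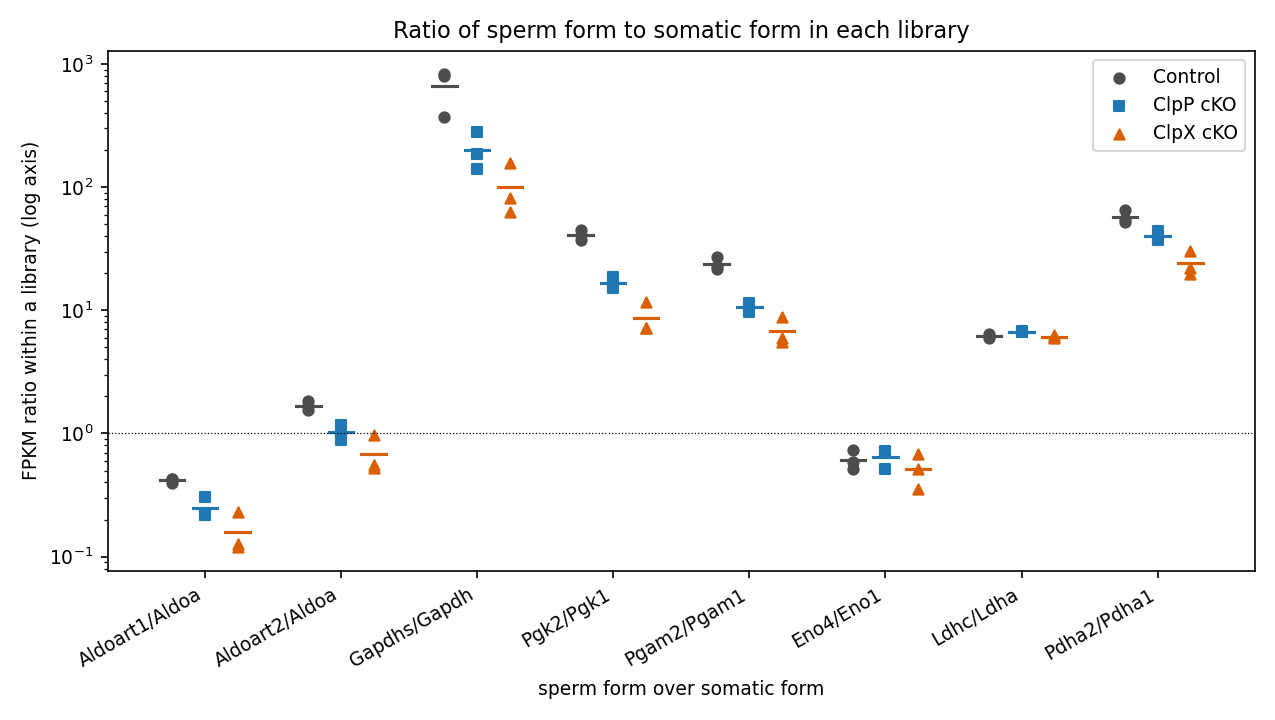
FPKM of the sperm form divided by FPKM of its somatic partner in each library, on a log axis, with a bar at each group mean. The mean ratio falls from Control to ClpP cKO to ClpX cKO for Pgk2, Pgam2, Pdha2, Gapdhs and both aldolase retrogenes, and stays near 6 for Ldhc over Ldha.

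The knockouts were also compared with each other, where no row was called in either direction (limma; of all genes tested 0.104% were called, 0.0463% as higher and 0.0579% as lower). At an unadjusted p under 0.05, 8 rows were higher and 15 lower in ClpX cKO, and voom on recovered reads called 1 row lower, Gapdhs. The share of all genes at an unadjusted p under 0.05 was not taken. All 8 sperm forms were lower in ClpX cKO (median -0.50), with adjusted p from 0.086 to 0.13, and 6 of them did not overlap with ClpP cKO. Over all 35 rows, 20 (57.1%) had fully separate values in the knockouts, beside 29.9% of all genes tested. Gapdhs had the largest difference at -0.98 (SE 0.25, adjusted p = 0.086). Leaving out ClpX cKO 1 changed the called counts to 6 rows higher and 14 lower, and leaving out Control 3 gave 1 row lower. The share of all genes called with a library left out was not taken either, so these counts do not set the members apart.

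ClpX cKO 1 and Control 3 stood apart within their groups in a way that touched the sperm forms. Against the mean of ClpX cKO 2 and 3, ClpX cKO 1 held 1.82 times the FPKM of Aldoart1, 1.78 of Aldoart2, 1.65 of Gapdhs and 1.58 of Pgk2, and its summed round spermatid markers were 1.67 times as high. Against the mean of Control 1 and 2, Control 3 held 0.532 times the FPKM of Gpi1, 0.597 of Gapdhs, 0.686 of Hk1 and 0.739 of Pgk2, and its summed elongating spermatid markers were at 0.458. Ldhc (0.95), Ldha (1.01) and the round spermatid markers (1.02) did not differ this way in Control 3. Marker sums of other cell types differed too. In ClpX cKO 1 those of erythroid cells were at 1.98 and of peritubular and stromal cells at 0.655. In Control 3 those of Leydig cells were at 0.520 and of peritubular and stromal cells at 1.37. Meiotic prophase markers were at 0.987 in ClpX cKO 1 and 1.13 in Control 3. Without both libraries, 7 rows rose and 18 fell in ClpP cKO and 9 rose and 20 fell in ClpX cKO, against 7, 17, 9 and 20 with them. No share of all genes was taken without both. The part of spermatid content or of other cell types in these differences was not tested.

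**Figure D4:**
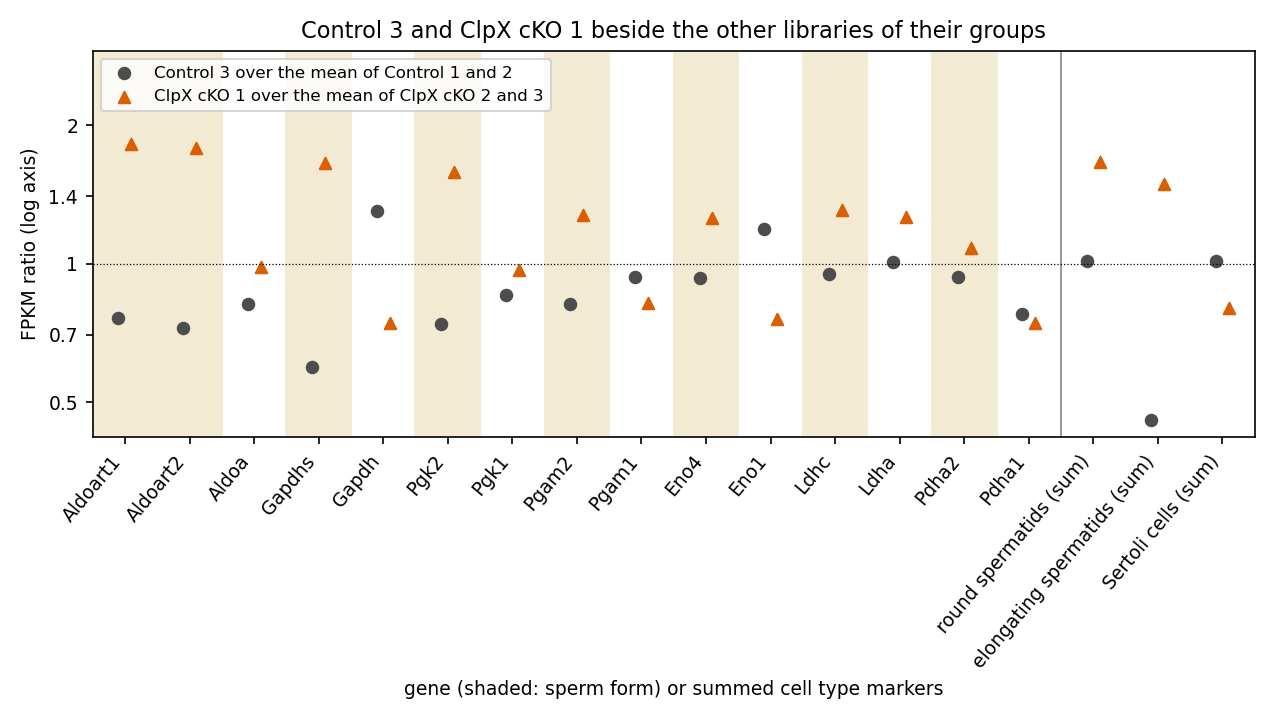
Control 3 over the mean of the other controls (circles) and ClpX cKO 1 over the mean of the other ClpX cKO libraries (triangles), as FPKM ratios on a log axis, for sperm forms (shaded), their somatic partners and the summed markers of 3 cell types. Circles of Gapdhs, Pgk2 and the aldolase retrogenes lie below 1 and their triangles above it, as do those of the elongating spermatid markers, while Ldhc and Pdha2 lie nearer to 1.

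Genes around the pathway were taken from a list of 69 symbols, of which 68 were in the table and 51 passed the filter. In ClpP cKO 12 rose and 11 fell (median 0.18), so 45.1% were called, close to the 44.7% of all genes tested. In ClpX cKO 24 rose and 13 fell (median 0.20), or 72.5% called beside 65.6%. Own-total scaling gave 23 and 8 in ClpP cKO, and 30 and 9 in ClpX cKO. In ClpP cKO the count of risen genes dropped to 6 without ClpP cKO 2 and to 7 without Control 2, and that of fallen genes to 7 without Control 1, Control 2 or ClpP cKO 2. Shares of all genes called with own-total scaling or a library left out were not taken. The counts in those settings therefore do not set these genes apart. The cytosolic and mitochondrial glycerol phosphate dehydrogenases, which pass electrons from glycolysis to the respiratory chain, went opposite ways. Gpd1 was at 8.27 ± 0.209 FPKM in Control, 12.6 ± 1.10 in ClpP cKO and 20.6 ± 2.25 in ClpX cKO, changes of 0.55 (SE 0.09, adjusted p = 0.0086) and 1.22 (SE 0.09, adjusted p = 0.00045). Gpd2 was at 74.9 ± 14.6 FPKM in Control, 36.8 ± 5.92 in ClpP cKO and 20.5 ± 6.31 in ClpX cKO, changes of -0.998 (SE 0.22, adjusted p = 0.012) and -1.84 (SE 0.22, adjusted p = 0.00046). Bpgm, which makes bisphosphoglycerate, fell by 0.56 and 0.76, and G6pc3, a glucose-6-phosphatase, by 0.40 and 0.49. Pdk2, a kinase that turns pyruvate dehydrogenase off, fell by 0.76 in ClpP cKO and 0.83 in ClpX cKO. Pcx, pyruvate carboxylase, rose by 0.37 and 0.46, Adpgk, the ADP-dependent glucokinase, by 0.35 and 0.67, and Ldhd, which oxidizes D-lactate, by 0.48 and 1.13 from a control level of 1.08 ± 0.114 FPKM. The ClpP cKO call was lost for Ldhd when Control 1, Control 2, Control 3, ClpP cKO 1, ClpP cKO 2 or ClpX cKO 2 was left out (adjusted p = 0.054 to 0.13), and for Adpgk when Control 2, ClpP cKO 1 or ClpP cKO 2 was left out (adjusted p = 0.052 to 0.063). G6pc3 was at -0.06 and -0.04 and not called after quantile normalization.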

How the data were processed

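RNA libraries were made with a SMARTER mRNA-Seq kit, per the labels' protocols. The authors deposited 1 table of FPKM per gene and library with a gene length in bases (a column of another unit), per the file headers. The builds GRCm38 and mm10 come from the submitters' processing notes, and the aligner and counter are not given in the sources used here. Dividing the product of FPKM and length by a constant of each library gave whole reads in 100% of values (within 0.01 of a read). The per-million denominator was 0.919 times the library's gene reads in Control, 1.05 in ClpP cKO and 1.07 in ClpX cKO (group means).

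The limma 3.58.1 fit (R 4.3.3) used log2(FPKM + 1) of genes whose mean over the 9 libraries reached 1 FPKM. It held every library, had a trended variance prior and left 6 residual degrees of freedom. The fit was also run on simulated counts in which few genes changed, and only in ClpP cKO. That run does not check the fit where many genes change or where the scaling differs between groups. P-values were two-sided and adjusted over all 17266 genes tested. Log2 changes are on the log2(FPKM + 1) scale, which understates changes of low genes. Python 3.11.15 and pandas 2.3.3 were used before and after the fit, and matplotlib 3.10.9 for plots. Upstream windows are from RefSeq tables. All members were described, with values in every library for the pair genes and for the other members with the 3 smallest adjusted p in each direction of each comparison. Other pathway genes were named where called with the 3 smallest adjusted p in each direction against Control. Genes, lists and alternatives were chosen with earlier results of these data known. Voom on recovered reads, the alternatives for other pathway genes and the ratio of G6pd2 to G6pdx were added after seeing the data.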

Additional observations from a re-analysis of the deposited data

How the results depend on the processing

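Libraries have 14334436 to 17021685 gene reads, so depth limits only the low members (Gapdh, Pdha1, Aldoc, Slc2a1, Eno2). The count test planned on recovered reads was not run, because the deposited values are FPKM, and voom took its place. Voom scaled each library to its own total of gene reads, so it and own-total scaling share 1 scaling. Same-numbered libraries correlated at -0.0702 to 0.234 in their deviations, and differently numbered ones at -0.237 to 0.113. The highest values (0.234, 0.191, 0.173 and 0.126) were all of same-numbered libraries. These correlations do not settle whether the numbers pair libraries. With the number as a block, members called were 6 risen and 17 fallen in ClpP cKO and 9 and 20 in ClpX cKO. The share of all genes called with the block was not taken. Median-of-ratios scaling left the median change of all genes in ClpP cKO at 0.0148, as in the main fit, with nearly the same member changes. It was therefore no separate check. A pseudocount of 0.1 and both filters kept every count of members within 1.5 times. Without a filter on low values, however, the ClpP cKO calls of Ldhc, Eno4, Slc16a7, Bsg, Pfkfb4, Slc2a1 and Pdha1 were lost. The ClpX cKO calls of Slc2a3, Bsg and Pdha2 were lost there too. Direction and call held under every alternative that tested the gene (the filter at a mean FPKM of 5 dropped Aldoc, Pdha1 and Slc2a1) for 4 of 7 risen and 7 of 17 fallen members in ClpP cKO, and for 9 of 9 and 13 of 20 in ClpX cKO.

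Members risen in ClpP cKO (7) were 11 after quantile normalization, 11 with own-total scaling, 12 with voom and 4 to 7 with 1 library left out. Those fallen (17) were 8 after quantile normalization and 10 to 18 with 1 library left out, the lowest without Control 1, ClpP cKO 2 or ClpP cKO 3. In ClpX cKO quantile normalization gave 14 risen and 13 fallen. Between the knockouts, 0 to 6 were higher and 0 to 14 lower with 1 library left out, 8 and 15 without Control 3 and ClpX cKO 1 together, and voom gave 1 lower. No share of all genes was taken for these counts. Adding 0.1 FPKM to both genes moved each group's mean log2 ratio of sperm to somatic form by less than its SD.

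Signs turned in the following, and the cause was not tested. After quantile normalization the log2 changes in ClpP cKO were 0.028 for Aldoa, 0.081 for the row upstream of Aldoa, 0.27 for Bsg, 0.11 for Pkm and 0.49 for Slc2a3. In ClpX cKO they were 0.17 for Aldoa, 0.40 for Bsg, 0.28 for Pdha2, 0.33 for Pdhb, 0.083 for Pfkm, 0.39 for Pkm and 0.35 for Slc2a3. With own-total scaling and with voom they were, in ClpP cKO, 0.051 and 0.057 for the row upstream of Aldoa, 0.053 and 0.065 for Pfkfb3, and 0.13 and 0.13 for Slc2a3. In ClpX cKO they were 0.020 and 0.020 for Pdha2, 0.16 and 0.16 for Pdhb, 0.13 and 0.16 for Pfkfb2, 0.092 and 0.11 for Pfkfb3, and 0.16 and 0.16 for Pkm. Between the knockouts Aldoa was 0.14 (quantile), 0.035 (own-total), 0.036 (voom) and 0.0030 (both libraries out), and Eno1 was 0.075, 0.012, 0.0092 and 0.085. Pdhb was 0.044 there after quantile normalization, Bsg -0.0082 without ClpX cKO 1, and Pfkfb3 -0.040 without ClpP cKO 3 and -0.028 without ClpX cKO 3. Pdhb in ClpP cKO was -0.0028 with both out. With 1 library left out, Aldoa ranged from -0.055 to 0.039, Eno1 from -0.28 to 0.17 and Gapdh from -0.064 to 0.11 between the knockouts. Likewise Pdhb in ClpP cKO ranged from -0.0092 to 0.038, and in ClpX cKO Pfkfb2 from -0.12 to 0.0098 and Pkm from -0.17 to 0.017. Fbp1, a gene beside the pathway, was 0.19 in ClpP cKO and 0.039 in ClpX cKO after quantile normalization.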

Other observations

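The pentose phosphate pathway, which branches from glycolysis at glucose-6-phosphate and supplies NADPH, had 11 genes tested. In ClpP cKO 4 rose and 1 fell (45.5% called, beside 44.7% of all genes tested), and in ClpX cKO 7 rose and 1 fell (72.7%, beside 65.6%), while own-total scaling gave 8 and 9 risen. Without ClpP cKO 2 the count of risen genes in ClpP cKO was 2. For own-total scaling and for this omission no share of all genes was taken. Taldo1 (transaldolase) went from 10.8 ± 0.979 FPKM in Control to 16.2 ± 0.127 and 20.1 ± 3.70, and Rpia (ribose-5-phosphate isomerase) from 3.98 ± 0.543 to 6.03 ± 0.433 and 6.49 ± 0.481. The gene that fell was G6pd2, an autosomal retrogene of X-linked G6pdx, chosen for mention after its values were seen. G6pd2 was at 21.1 ± 0.732 FPKM in Control, 11.5 ± 3.37 in ClpP cKO and 8.40 ± 3.55 in ClpX cKO (log2 changes -0.85 (SE 0.25, adjusted p = 0.028) and -1.30 (SE 0.25, adjusted p = 0.0024), limma). The ClpP cKO call of G6pd2 was lost when Control 1, Control 2, Control 3, ClpP cKO 2 or ClpP cKO 3 was left out (adjusted p = 0.061 to 0.091), and that of G6pdx when ClpP cKO 2 was left out (adjusted p = 0.055). G6pdx was at 4.24 ± 0.0703, 6.30 ± 0.185 and 8.22 ± 1.64 FPKM (log2 changes 0.48 and 0.80). The ratio of G6pd2 to G6pdx was 4.95, 4.77 and 5.21 in the controls, 2.45, 1.55 and 1.496 in ClpP cKO and 1.91, 0.704 and 0.699 in ClpX cKO, a fall in the same direction as for the Pgk2 and Pdha2 pairs. G6pd2 shares 16.7% of its 31-base windows with G6pdx.

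Among carriers and enzymes beside the pathway with a high FPKM, Slc2a5, a fructose transporter, was at 238 ± 5.62 FPKM in Control, 152 ± 7.05 in ClpP cKO and 131 ± 26.3 in ClpX cKO. Fbp1, fructose bisphosphatase, was at 291 ± 7.82, 227 ± 11.8 and 191 ± 27.4 FPKM. Both fell in both knockouts (limma, adjusted p from 0.026 for Fbp1 in ClpP cKO to 0.00063 for Slc2a5 in ClpX cKO). The Fbp1 call in ClpP cKO was lost when Control 1, Control 2, ClpP cKO 1, ClpP cKO 2 or ClpP cKO 3 was left out (adjusted p = 0.059 to 0.074), and Fbp1 was 0.19 and 0.039, not called, after quantile normalization. Both genes and Taldo1 were chosen for mention after their values were seen.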
